A study of Homo sapiens with 6 samples.

Results

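The genes described here are 10 heat shock genes, most of them classical targets of heat shock factor 1 (HSF1), in the triple-negative breast cancer line MDA-MB-231. They are HSPA1A, HSPA1B, HSPA8, HSP90AA1, HSPH1, HSPB1, DNAJB1, BAG3, HSPD1 and HSPE1. They were chosen by symbol, and all 10 were found among the 41471 rows of the knockdown table and the 34157 rows of the Reb table. All 10 were also among the 15295 and 15655 genes that averaged at least 1 CPM (counts scaled to the library total) in the respective experiment.

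Messenger RNA was sequenced in 2 experiments. In the knockdown experiment, MDA-MB-231 cells stably carried a lentiviral scramble shRNA, CDK16-sh1 or CDK16-sh2, 2 hairpins against the atypical cyclin-dependent kinase CDK16. In the Reb experiment, MDA-MB-231 cells received DMSO or rebastinib (Reb, a multi-kinase inhibitor proposed to act on CDK16) at 1 μM or 5 μM for 48 h. Each of the 6 conditions had 1 library, so no value below has a replicate check. In such bulk libraries fewer cells that express a gene and less RNA of it per cell cannot be told apart.

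Heat shock proteins are chaperones that bind unfolded or newly made proteins and keep them from aggregating. HSP70 proteins work in cycles of ATP hydrolysis that J-domain proteins start and nucleotide exchange factors end, HSP90 receives client proteins such as kinases from HSP70, small heat shock proteins hold unfolded proteins without ATP, and HSP60 with HSP10 folds proteins inside mitochondria. HSF1 is held inactive in unstressed cells, and on proteotoxic stress it forms trimers, binds heat shock elements (inverted repeats of the unit GAA) and induces these genes together. Many cancer cells keep HSF1 partly active, and inhibitors of HSP90 or of the proteasome are known to induce the same genes.

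Library totals ranged from 25838443 to 50303269 counts. CDK16 itself had 3223 counts in scramble, 1360 with CDK16-sh1 and 846 with CDK16-sh2, and its log2 fold change was -1.52 and -1.82. In the Reb experiment the log2 fold change of CDK16 was -0.14 at 1 μM and 0.27 at 5 μM, the latter -0.42 when scaled by library totals. VIM, CD44, AXL, CAV1 and EGFR, markers expected in this line, were present in every library. Their lowest values were 177, 31.8, 45.4, 3.95 and 4.81 RPKM (reads per kilobase of exon, scaled to the library total). Of the markers this line should lack, ESR1, PGR and CDH1 did not exceed 0.174 RPKM, while EPCAM reached 4.30 and GATA3 3.75 RPKM. The leukocyte gene PTPRC and the hepatocyte gene ALB did not exceed 0.0847 RPKM, the endothelial gene PECAM1 and the smooth muscle gene MYH11 stayed at or below 0.395 RPKM, and COL1A1 lay between 1.01 and 2.64 RPKM. The 5 μM library stood apart in composition: its 100 most abundant genes took 35.3% of all counts, against 24.3% in DMSO, and mitochondrial transcripts 16.4%, against 7.19%. In CDK16-sh2 these shares were 31.3% and 16.2%, against 25.8% and 11.3% in scramble.

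The 10 genes together took 0.559% of all counts in scramble, 0.376% with CDK16-sh1 and 0.515% with CDK16-sh2. In the Reb experiment they took 0.775% in DMSO, 0.715% at 1 μM and 0.658% at 5 μM. The sum is mostly 2 genes: HSP90AA1, the stress-inducible cytosolic HSP90, and HSPA8, the constitutive cytosolic HSP70, which made up 35.1% and 32.9% of it in scramble and 54.7% and 23.5% in DMSO. Per length, HSPA8 was the highest of the 10 in all 3 knockdown libraries and HSP90AA1 in all 3 Reb libraries. Among all genes ranked by RPKM, HSP90AA1 lay between places 40 and 275 and HSPA8 between places 92 and 268. HSPH1, the HSP110 protein that exchanges nucleotide on HSP70, was the lowest of the 10 per length in 5 libraries, the exception being 5 μM Reb, where HSPE1 was lowest.

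**Figure D1:**
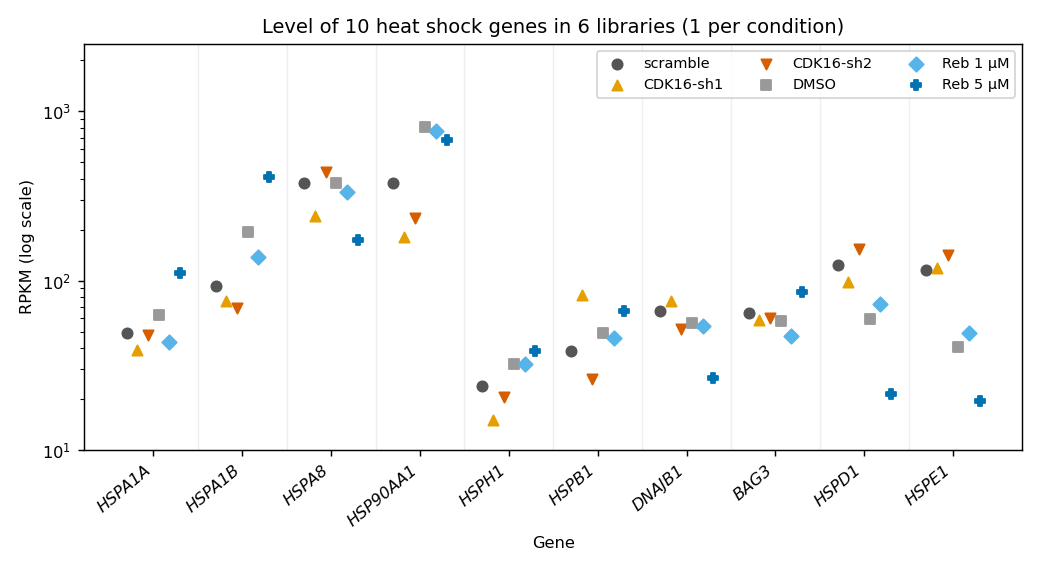
RPKM (log scale) of the 10 genes in the 6 libraries, 1 point per library and no replicates. HSP90AA1 lay between 181 and 808 RPKM and HSPA8 between 173 and 437, the HSPA1A and HSPA1B points are highest at 5 μM Reb, and the HSPD1 and HSPE1 points are lowest there.

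The comparison of each hairpin with scramble asks how the chaperone genes stood in cells with less CDK16. In CDK16-sh1, 1 of the 10 genes was at least 2-fold lower (HSP90AA1) and 1 at least 2-fold higher (HSPB1), where 6.86% and 4.33% of all genes tested were. With the trend in GC content and length removed neither stayed past 2-fold, where 4.41% and 2.06% of all genes were lower and higher. In CDK16-sh2, none of the 10 was at least 2-fold lower or higher, where 7.62% and 2.2% of all genes were. With CDK16-sh1 the median log2 fold change of the 10 genes was -0.28, and with CDK16-sh2 it was 0.05, where that of all genes was 0.00 and 0.02. In CDK16-sh1, 7 of the 10 values lay below 0, the near-copies HSPA1A and HSPA1B among them, and in CDK16-sh2 5 did. The share of all genes below 0 was not taken, but their medians lay close to 0. The values spread from -1.02 to 1.14 with the first hairpin and from -0.48 to 0.51 with the second.

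The comparison of each Reb dose with DMSO asks the same of cells under the inhibitor. At 1 μM none of the 10 genes was at least 2-fold lower or higher, where 1.92% and 1.28% of all genes were. At 5 μM none was at least 2-fold lower and 4 were at least 2-fold higher (HSPA1B, HSPA1A, BAG3 and HSPB1), where 27.2% of all genes were lower and 23.6% higher. The count of 4 in 10 has to be read against that broad shift. The median log2 fold change of the 10 genes was -0.14 at 1 μM and 0.68 at 5 μM, and that of all genes 0.00 and -0.07.

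The 5 μM values depend on how the libraries are put on 1 scale. Scaling by library totals instead of TMM (a trimmed mean over genes) lowered each 5 μM value by 0.69 on the log2 scale, the median of all genes included, which then was -0.75. With library totals 4 of the 10 genes were at least 2-fold lower (HSPA8, DNAJB1, HSPD1 and HSPE1) and 1 at least 2-fold higher (HSPA1B), where 43.4% and 11.7% of all genes were, and HSP90AA1 changed sign. The median of the 10 genes minus that of all genes was 0.75 under either scaling, as it must be when every value moves by the same amount. It was 0.58 with the trend in GC content and length removed, 0.50 with HSPA1A and HSPA1B summed and 0.48 with no filter on low counts. The order of the genes and the ratios between them within a library do not depend on the library scaling, so these are given beside the fold changes below. Removing the trend in GC content and length can change them. RPKM as deposited follow the library totals, so a gene can have a lower RPKM at 5 μM than in DMSO and still a TMM value above 0, as HSP90AA1 does.

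**Figure D2:**
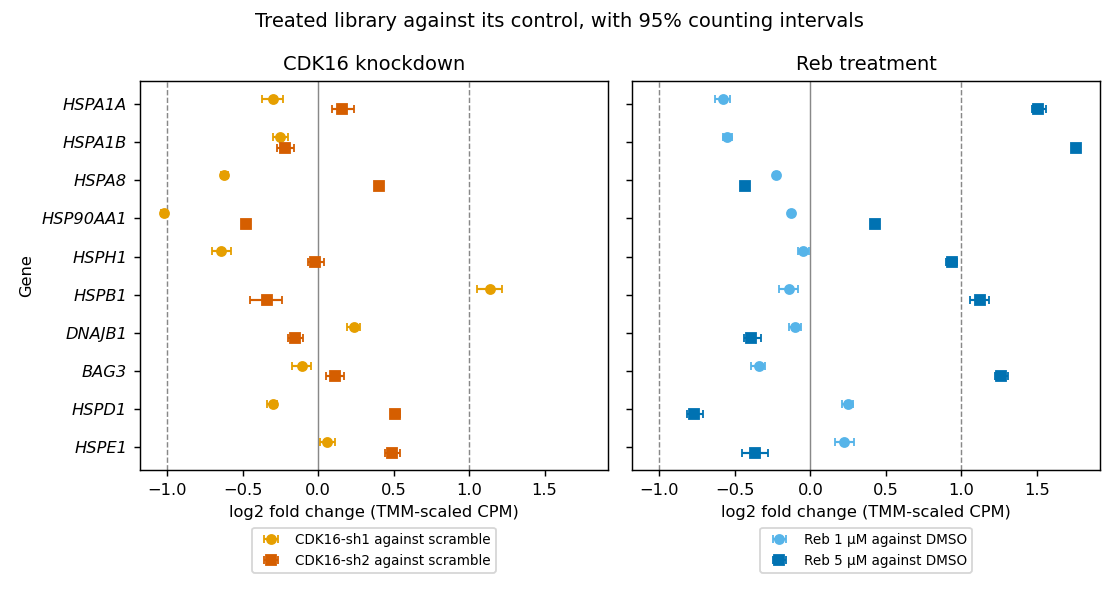
Log2 fold change of TMM-scaled CPM for each treated library against its control, CDK16 knockdown on the left and Reb on the right. Bars are 95% Clopper-Pearson intervals that cover counting error only, and dashed lines mark 2-fold. In the knockdown panel HSP90AA1 and HSPB1 in CDK16-sh1 lie past 2-fold, at -1.02 and 1.14. In the Reb panel HSPA1A, HSPA1B, HSPB1 and BAG3 lie past 2-fold at 5 μM, and all 1 μM values lie between -0.58 and 0.25.

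HSPA1A and HSPA1B encode the stress-inducible HSP70, and their genes lie next to each other on chromosome 6 of GRCh38, HSPA1A at 31815464 to 31817946 and HSPA1B at 31827735 to 31830255 on the plus strand. They are near-copies. Their longest annotated transcripts were 88.11% identical over the alignment, and 69.9% of the 100-base windows of HSPA1A and 72.7% of those of HSPA1B also occur in another annotated gene, for most of them the partner. How reads that match both were counted is not given in the sources used here, so the split between the 2 rows is uncertain and their sum is the firmer value. For the sum, the log2 fold changes were -0.27 with CDK16-sh1, -0.07 with CDK16-sh2, -0.56 at 1 μM and 1.70 at 5 μM. Counted as 1 gene, the pair leaves 3 of 9 genes at least 2-fold higher at 5 μM and a median of 0.43.

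HSPA1A had 49.1 RPKM in scramble, 39.0 with CDK16-sh1 and 48.0 with CDK16-sh2, and 62.5 in DMSO, 43.2 at 1 μM and 111 at 5 μM Reb. HSPA1B had 92.4, 76.1 and 69.3 RPKM in the knockdown libraries, and 194, 137 and 407 in DMSO, 1 μM and 5 μM. Both were thus highest in the 5 μM library and lower at 1 μM than in DMSO. At 1 μM the log2 fold changes were -0.58 for HSPA1A (95% counting interval -0.63 to -0.53) and -0.55 for HSPA1B (-0.58 to -0.52), and 7.23% and 8.14% of all genes had lower values. At 5 μM they were 1.51 (1.47 to 1.56) and 1.76 (1.74 to 1.78), 2.86-fold and 3.39-fold, and 86.0% and 89.3% of all genes had lower values. With library totals the 5 μM values were 0.82 and 1.07. Directly between the doses, HSPA1A was higher at 5 μM than at 1 μM by 2.10 and HSPA1B by 2.31. This was seen at the raw level too, since 10339 of the smaller 5 μM library's reads fell on HSPA1A and 38623 on HSPA1B, against 7801 and 24595 in DMSO.

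In the knockdown libraries both genes differed little from scramble under TMM. The log2 fold changes of HSPA1A were -0.30 and 0.16, and those of HSPA1B -0.25 and -0.22, all within 1.23-fold. Fold changes with CDK16-sh1 went with GC content over all genes (Pearson's r across 12940 genes 0.48, where genes are not independent replicates, and 0.13 with CDK16-sh2), and less strongly and in the other direction with Reb (-0.30 at 1 μM and -0.22 at 5 μM across 13202 genes), and both members are rich in GC, at 59.7% and 58.7% of their longest transcripts. With the trend in GC and length removed, the CDK16-sh1 values were -0.78 and -0.70 and the 5 μM values 1.79 and 2.03, and the part of GC content in them was not tested otherwise. HSPA1B had 1.47 to 1.98 times the counts of HSPA1A in the knockdown libraries and 3.15 to 3.74 times in the Reb libraries. The ratio of the 2 rows thus differed more between the experiments than within them.

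The promoters of the pair are shown because these 2 genes had the highest 5 μM values of the 10. The windows run from 250 bases before to 50 bases after the RefSeq start in GRCh38.p14 and were 92.03% identical over the alignment. Capitals mark the pair of inverted heat shock element units, GAANNTTC, which begins 106 bases before the start in HSPA1A and 105 bases before it in HSPA1B.
HSPA1A promoter, chr6:31815293-31815592, plus strand: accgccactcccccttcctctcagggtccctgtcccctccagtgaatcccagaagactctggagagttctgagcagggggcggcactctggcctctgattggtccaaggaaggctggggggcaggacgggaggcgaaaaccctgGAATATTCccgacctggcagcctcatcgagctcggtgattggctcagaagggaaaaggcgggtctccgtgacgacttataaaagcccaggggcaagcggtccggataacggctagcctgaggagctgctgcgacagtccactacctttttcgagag
HSPA1B promoter, chr6:31827488-31827787, plus strand: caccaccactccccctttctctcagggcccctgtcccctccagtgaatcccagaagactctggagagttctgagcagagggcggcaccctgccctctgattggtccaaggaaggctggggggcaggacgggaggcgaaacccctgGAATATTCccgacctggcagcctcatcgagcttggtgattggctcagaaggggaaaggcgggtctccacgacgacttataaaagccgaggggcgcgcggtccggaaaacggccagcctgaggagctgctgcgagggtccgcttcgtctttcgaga
The 8 capital letters are the same in both windows. Of the 14 member windows, only these 2 held the exact TATA box TATAAA, which 11.5% of all 35116 promoter windows held.

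HSPA8 encodes HSC70, the constitutive cytosolic HSP70, which carries the bulk of folding, clathrin uncoating and chaperone-mediated autophagy in unstressed cells. It lies on chromosome 11 from 123057489 to 123063230 on the minus strand. It had 379 RPKM in scramble, 241 with CDK16-sh1 and 437 with CDK16-sh2, and 376 in DMSO, 332 at 1 μM and 173 at 5 μM. The hairpins lay on opposite sides of scramble. The 5 μM library was the lowest of the 6 by RPKM, while CDK16-sh1 was lowest under TMM, at -0.62 against scramble where 5 μM Reb lay at -0.34. The log2 fold changes were -0.62 (-0.64 to -0.60) with CDK16-sh1 and 0.40 (0.38 to 0.42) with CDK16-sh2. The 2 hairpins thus lay 1.02 apart, which is past 2-fold. Of all genes, 15.2% differed at least 2-fold between the hairpins. The Reb values were -0.23 at 1 μM and -0.43 at 5 μM, and with library totals the 5 μM value was -1.12.

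The ratio of inducible to constitutive HSP70 within a library is free of the library scaling, but not of the trend in GC content and length. The summed RPKM of HSPA1A and HSPA1B was 0.373 times that of HSPA8 in scramble, 0.477 times in CDK16-sh1 and 0.268 times in CDK16-sh2. It was 0.683 times in DMSO, 0.543 times at 1 μM and 3.00 times at 5 μM. With the trend removed, the CDK16-sh1 log2 fold changes were -0.78 for HSPA1A, -0.70 for HSPA1B and -0.51 for HSPA8. The pair thus fell more than HSPA8 there, while by RPKM its ratio to HSPA8 was higher than in scramble. At 5 μM the values with the trend removed were 1.79, 2.03 and -0.41. By RPKM, the 5 μM library was the only one of the 6 in which the inducible pair exceeded HSPA8. The RPKM of HSPA8 was taken over 4849 exonic bases, while its longest transcript has 2463. Reads that match both genes of the pair may also have been dropped or counted more than once. Whether the ratio of a library lies above or below 1 is thus uncertain. In the other 5 libraries the pair had between 0.268 and 0.683 times the HSPA8 level, and the untreated libraries of the 2 experiments differed from each other too.

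HSPH1 and BAG3 both act on HSP70 as nucleotide exchange factors, and BAG3 also leads HSP70 clients to autophagy. HSPH1 had 23.9 RPKM in scramble, 15 with CDK16-sh1 and 20.6 with CDK16-sh2, and 32.1 in DMSO, 32.2 at 1 μM and 38.1 at 5 μM. BAG3 had 64.1, 58.2 and 60.4 RPKM in the knockdown libraries, and 57.6, 46.9 and 85.7 in the Reb libraries. Both had their highest level at 5 μM. The log2 fold changes of HSPH1 were -0.64 in CDK16-sh1, -0.02 in CDK16-sh2, -0.05 at 1 μM and 0.94 (0.90 to 0.97) at 5 μM, the last just under 2-fold. Those of BAG3 were -0.11, 0.11, -0.34 and 1.26 (1.22 to 1.31). With the trend in GC and length removed, the CDK16-sh1 values were -0.19 for HSPH1 and -0.50 for BAG3. By RPKM, BAG3 varied least of the 10 across the 6 libraries, with a highest level 1.83 times its lowest. Under TMM, with the experiments joined through their untreated libraries, it spanned 3.05-fold, and DNAJB1 varied least, at 1.69-fold. With library totals the 5 μM values were 0.25 for HSPH1 and 0.57 for BAG3. Against HSPA8 in the same library, HSPH1 was at 0.0856 times in DMSO and 0.221 times at 5 μM, and BAG3 at 0.153 and 0.496 times.

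DNAJB1 encodes HSP40, the J-domain protein that loads clients on HSP70, and is itself a strong HSF1 target in stressed cells. It had 65.9 RPKM in scramble, 76.1 with CDK16-sh1 and 51.8 with CDK16-sh2, and 55.8 in DMSO, 53.8 at 1 μM and 26.4 at 5 μM. Unlike the inducible HSP70 pair, it was lowest at 5 μM. The log2 fold changes were 0.24 in CDK16-sh1, -0.15 in CDK16-sh2, -0.10 at 1 μM and -0.39 (-0.44 to -0.33) at 5 μM. The 5 μM value was -1.08 with library totals and -0.09 with the trend in GC and length removed, which also put CDK16-sh1 at 0.05 and CDK16-sh2 at -0.26. Against HSPA8 it had nearly the same ratio in the 3 Reb libraries, 0.149 times in DMSO, 0.162 at 1 μM and 0.153 at 5 μM. In CDK16-sh1 this ratio was 0.315, against 0.174 in scramble. DNAJB1 shares 228 exonic bases, 6.21% of its exonic length, with TECR on the opposite strand, and TECR had 5292 counts in scramble, 12431 with CDK16-sh1 and 5596 with CDK16-sh2. Whether the counting used strand is not given in the sources used here, and the part of TECR reads in the DNAJB1 value was not tested.

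HSP90AA1 encodes the inducible cytosolic HSP90 and lies on chromosome 14 from 102080738 to 102139699 on the minus strand. It had 375 RPKM in scramble, 181 with CDK16-sh1 and 235 with CDK16-sh2, and 808 in DMSO, 765 at 1 μM and 677 at 5 μM. Both hairpins were below scramble, and all 3 Reb libraries were above all 3 knockdown libraries. The counts behind the knockdown values were 50795, 30271 and 33863. The log2 fold change was -1.02 (-1.04 to -1.0) in CDK16-sh1, where 6.55% of all genes had lower values, and -0.48 (-0.50 to -0.46) in CDK16-sh2, where 20.9% did. HSP90AA1 was the gene of the 10 with the lowest value in either hairpin. With the trend in GC and length removed the CDK16-sh1 value was -0.83, under 2-fold. With Reb the values were -0.13 at 1 μM and 0.43 at 5 μM, the latter -0.26 with library totals.

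HSP90AB1, the constitutive cytosolic HSP90, is no member but is the natural partner for comparison. It had 1050 RPKM in scramble, 944 with CDK16-sh1 and 1460 with CDK16-sh2, and 2070 in DMSO, 2000 at 1 μM and 2580 at 5 μM. HSP90AA1 had 0.358 times the level of HSP90AB1 in scramble, 0.191 times in CDK16-sh1 and 0.16 times in CDK16-sh2. In the Reb experiment the ratio was 0.390 in DMSO, 0.382 at 1 μM and 0.262 at 5 μM. Both hairpins thus had a lower share of the inducible isoform than scramble, and the 5 μM library a lower share than DMSO, while inducible HSP70 had its highest share there.

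HSPB1 encodes HSP27, an ATP-independent small heat shock protein that also binds actin and intermediate filaments. It lies on chromosome 7 from 76302544 to 76304295 on the plus strand. It had 38.1 RPKM in scramble, 82.1 with CDK16-sh1 and 26.2 with CDK16-sh2, and 48.8 in DMSO, 45.7 at 1 μM and 65.7 at 5 μM. The hairpins lay on opposite sides of scramble, and CDK16-sh2 had the lowest value of all 6 libraries. CDK16-sh1 had the highest by RPKM, but under TMM 5 μM Reb was higher, at 1.58 against scramble. The counts were 1610, 4289 and 1177. The log2 fold changes were 1.14 (1.05 to 1.22) in CDK16-sh1, above 97.4% of all genes, and -0.34 (-0.45 to -0.24) in CDK16-sh2, and the hairpins differed by -1.48 (CDK16-sh2 minus CDK16-sh1). HSPB1 has the highest GC content of the 10, 64.3% in its longest transcript, and with the trend in GC and length removed the CDK16-sh1 value was 0.53. Reb gave -0.14 at 1 μM and 1.12 (1.06 to 1.18) at 5 μM, the latter 0.43 with library totals. Of the 11 small heat shock protein genes only 2 in the knockdown experiment and 4 in the Reb experiment reached a mean of 1 CPM, and CRYAB, alpha-B crystallin, had at most 4 counts in any library.

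HSPD1 (HSP60) and HSPE1 (HSP10) form the mitochondrial chaperonin and its lid, and their genes lie head to head on chromosome 2, HSPD1 on the minus strand at 197486581 to 197516737 and HSPE1 on the plus strand at 197499994 to 197503457. HSPD1 had 124 RPKM in scramble, 98.6 with CDK16-sh1 and 154 with CDK16-sh2, and 59.0 in DMSO, 72.5 at 1 μM and 21.5 at 5 μM. HSPE1 had 116, 118 and 142 RPKM in the knockdown libraries, and 40.3, 48.8 and 19.4 in the Reb libraries. The pair was highest in CDK16-sh2 and lowest at 5 μM, and every knockdown library was above every Reb library for both. The highest level was 7.16 times the lowest for HSPD1 and 7.32 times for HSPE1, the widest ranges of the 10 by RPKM. Under TMM they spanned 4.74-fold and 4.83-fold, and HSPA1B had the widest range, 9.08-fold. HSPD1 kept between 0.838 and 1.49 times the level of HSPE1 in the 6 libraries.

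The log2 fold changes of HSPD1 were -0.30 for CDK16-sh1 and 0.51 (0.48 to 0.54) for CDK16-sh2, and those of HSPE1 0.06 and 0.49 (0.44 to 0.54). At 1 μM HSPD1 had 0.25 and HSPE1 0.22, the only values above 0 of the 10 at that dose. At 5 μM they had -0.77 (-0.82 to -0.71) and -0.37 (-0.45 to -0.28), and -1.46 and -1.05 with library totals. HSPD1 and HSPE1 share 281 exonic bases on opposite strands, which is 6.62% of HSPD1 and 14.2% of HSPE1, so without strand their reads cannot be told apart there. The row HSPE1-MOB4, a readthrough gene, had 6083 counts in scramble and 4118 in DMSO, close to the 5902 and 4007 of HSPE1, and 17.0% of the 100-base windows of HSPE1 occur in another annotated gene.

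The promoters of HSPA8, HSP90AA1 and HSPD1 are shown because they held the 3-unit heat shock element GAANNTTCNNGAA or its reverse complement TTCNNGAANNTTC, which 0.49% of all promoter windows held. Under TMM none of the 3 genes was among those past 2-fold at 5 μM. With library totals HSPA8 was at -1.12 and HSPD1 at -1.46 there, where 43.4% of all genes were at least 2-fold lower. Capitals mark every match to that element or to a pair of its units, and the sequences are written along the gene's strand.
HSPA8 promoter, chr11:123062087-123062386, minus strand: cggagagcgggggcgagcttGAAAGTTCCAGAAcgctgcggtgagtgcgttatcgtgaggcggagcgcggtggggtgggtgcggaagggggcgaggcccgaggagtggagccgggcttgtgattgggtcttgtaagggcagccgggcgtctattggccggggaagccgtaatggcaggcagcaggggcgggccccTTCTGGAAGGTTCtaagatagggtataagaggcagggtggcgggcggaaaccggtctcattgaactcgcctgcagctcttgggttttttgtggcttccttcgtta
HSP90AA1 promoter, second window, chr14:102086995-102087294, minus strand: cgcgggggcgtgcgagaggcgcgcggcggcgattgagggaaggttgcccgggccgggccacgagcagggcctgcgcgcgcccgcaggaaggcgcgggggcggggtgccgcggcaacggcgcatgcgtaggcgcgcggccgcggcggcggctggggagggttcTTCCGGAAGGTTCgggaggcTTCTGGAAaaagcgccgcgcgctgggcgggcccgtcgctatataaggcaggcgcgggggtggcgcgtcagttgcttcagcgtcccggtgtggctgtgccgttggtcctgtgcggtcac
HSPD1 promoter, second window, chr2:197499791-197500090, minus strand: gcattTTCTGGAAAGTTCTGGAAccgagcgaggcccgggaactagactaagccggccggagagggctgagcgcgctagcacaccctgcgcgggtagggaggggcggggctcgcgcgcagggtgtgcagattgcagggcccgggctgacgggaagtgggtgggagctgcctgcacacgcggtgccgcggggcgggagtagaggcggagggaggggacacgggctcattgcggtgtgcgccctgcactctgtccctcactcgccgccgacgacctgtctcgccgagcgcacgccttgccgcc
HSPA8 held the element at 2 places, 230 and 55 bases before the start, HSP90AA1 once at 88 bases, and HSPD1 in 2 overlapping matches at 245 and 240 bases. Over all windows the pair GAANNTTC, which is its own reverse complement, occurred in 8 of the 14 member windows and in 7 of the 10 genes, against 6.77% of all windows. The other pair, TTCNNGAA, occurred in 3 of the 14, in the same 3 genes as the 3-unit element that contains it, against 7.74%. BAG3, HSPE1 and HSPH1 held neither pair in their windows, and their 5 μM values were 1.26, -0.37 and 0.94. The HSPE1 window, on the plus strand, begins at 197500129, just beyond the HSPD1 second window that ends at 197500090. The HSPD1 element near that end thus lies upstream of the RefSeq starts that define these 2 windows, but outside the HSPE1 window. The HSPE1 coordinates used for counting begin at 197499994, so the element lies within them. The CCAAT box occurred in 7 of the 14 windows (34.6% of all) and the GC box GGGCGG in 13 (45% of all). A match says only that these letters lie in the window, and other windows of a gene were not searched.

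**Figure D3:**
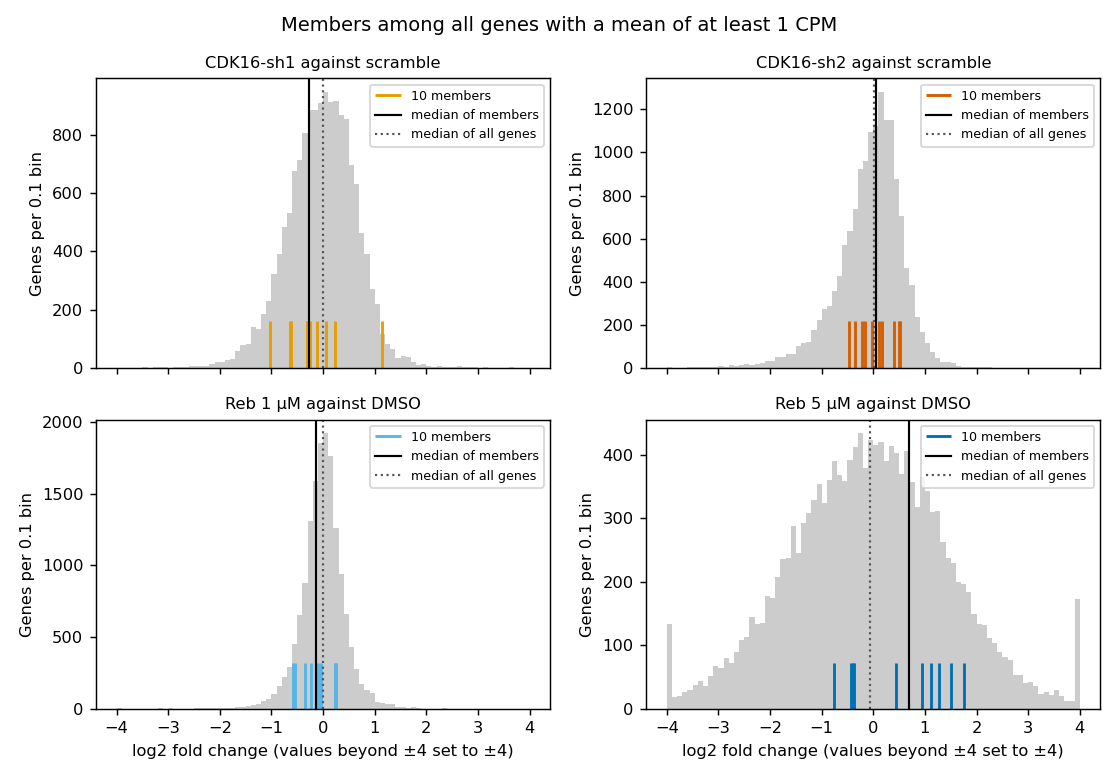
Distribution of the log2 fold changes of all genes tested (grey, genes per bin of 0.1) in each of the 4 comparisons, with the 10 members as coloured ticks, their median as a solid line and the median of all genes as a dotted line. The grey distribution is widest at 5 μM Reb, where 27.2% of genes lie at least 2-fold lower and 23.6% higher, and the member medians are -0.28, 0.05, -0.14 and 0.68.

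For a test across genes the 2 treated libraries of an experiment had to stand as 1 group against 1 control, so that the difference between hairpins or between doses served as the spread. By the quasi-likelihood test of edgeR (Benjamini-Hochberg adjusted), 0.0% of all genes were called in the knockdown experiment and 0 of the 10 members, while 382 of 15295 genes had an unadjusted p under 0.05. In the Reb experiment 0.0767% of all genes were called (12 of 15655) and again 0 of the 10 members. No member had an unadjusted p under 0.05 in either test, and DESeq2's Wald test also called 0 members in both experiments, with 0 and 17 of all genes called. The smallest unadjusted edgeR p-values of the members were 0.18 for HSP90AA1 in the knockdown experiment and 0.46 for HSPA1B in the Reb experiment. In the alternative fit with Reb dose as a linear term, 24.5% of all genes had an adjusted p of at most 0.05 and so did 2 members, HSPA1B (edgeR adjusted p = 0.0256, slope 0.73) and HSPA1A (adjusted p = 0.0362, slope 0.63). That fit assumes a straight line in the log of the dose, while both genes were lower at 1 μM than in DMSO, and neither slope reached 1. No dose had a replicate, so the spread of the fit came only from departures from the line. Its p-values thus measure no variation between replicates. BAG3 had an adjusted p of 0.081 and HSPB1 of 0.114.

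The 2 untreated libraries give a measure of how far these genes differ without either treatment. DMSO minus scramble was 1.17 for HSPA1B, 1.21 for HSP90AA1 and -1.41 for HSPE1, and -0.97 for HSPD1. So 3 of the 10 genes differed at least 2-fold between the untreated libraries, where 25.4% of all genes did. The remaining 6 lay between -0.13 (DNAJB1) and 0.53 (HSPH1). The vector, the DMSO and the experiment all differ between these libraries and cannot be told apart. Under TMM, for HSP90AA1, HSPD1 and HSPE1 this difference was larger than any treatment value of the same gene, while for the other 7 the largest treatment value was larger.

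Between the doses, 5 of the 10 genes differed at least 2-fold, HSPA1B, HSPA1A, BAG3, HSPB1 and, in the other direction, HSPD1 at -1.01, where 48.6% of all genes did. Between the hairpins 2 of the 10 did, HSPA8 and HSPB1, where 15.2% of all genes did.

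**Figure D4:**
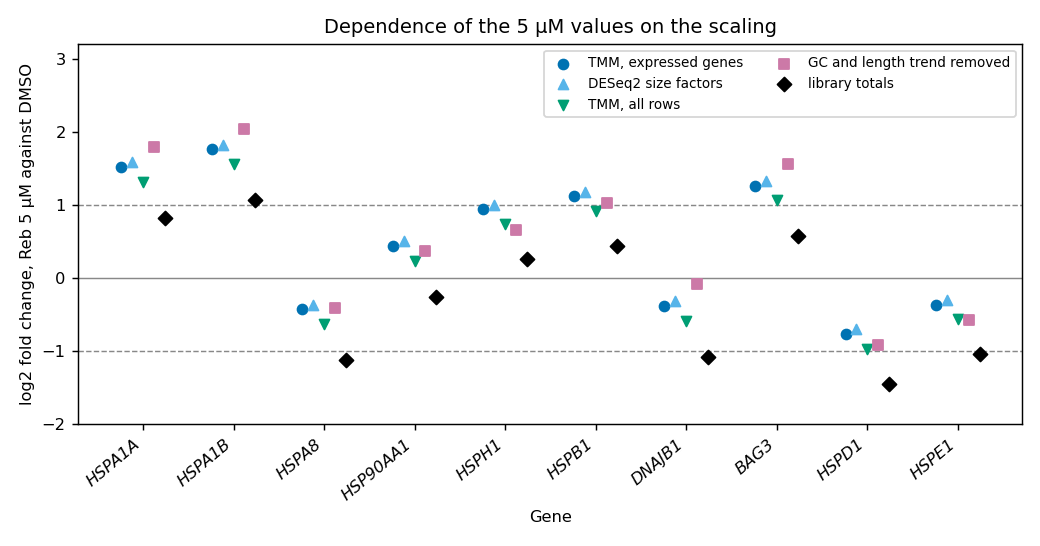
Log2 fold change at 5 μM Reb against DMSO for the 10 genes under 5 scalings, with dashed lines at 2-fold. HSPA1B stays past 2-fold under all 5, from 1.07 with library totals upward, HSP90AA1 crosses 0, and the order of the genes is nearly the same under each.

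HSF1, the factor that drives these genes, had 13.9 RPKM in scramble, 34.0 with CDK16-sh1 and 13.7 with CDK16-sh2, and 13.5 in DMSO, 11.8 at 1 μM and 8.10 at 5 μM. It was highest in CDK16-sh1, with a log2 fold change of 1.32 (1.25 to 1.40) there, or 0.86 and so under 2-fold with the trend in GC and length removed, and 0.18 in CDK16-sh2, while the median of the members in CDK16-sh1 was -0.28. At 1 μM and 5 μM the values were -0.24 and -0.05, and the latter ran from -0.74 with library totals to 0.67 with the GC trend removed. HSF1 is regulated mainly as a protein, so its messenger level does not give its activity. HSF2, a related factor that can form trimers with HSF1, had 8.66 RPKM in DMSO, 10.0 at 1 μM and 18.0 at 5 μM, a log2 fold change of 1.75 at 5 μM, and 0.01 and 0.04 with the hairpins. HSBP1, which binds HSF1 trimers and restrains them, had 0.07 and 0.29 with the hairpins, -0.05 at 1 μM and 1.08 at 5 μM, or 0.39 with library totals. HSF4 had -2.13 at 5 μM, from 860 counts in DMSO to 90.

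Of 22 other genes known as HSF1 targets, 20 were expressed in the Reb experiment. At 5 μM 8 were at least 2-fold higher and 1 at least 2-fold lower, with a median of 0.70 (0.01 with library totals), where 23.6% and 27.2% of all genes were. With library totals 3 were higher and 6 lower, where 11.7% and 43.4% of all genes were. CACYBP, a co-chaperone that binds HSP90 and ubiquitin ligase parts, had 60.8 RPKM in DMSO, 69.9 at 1 μM and 167 at 5 μM, a log2 fold change of 2.15 at 5 μM. ZFAND2A, an arsenite-inducible proteasome partner, had 2.66, 2.86 and 6.78 RPKM, and CHORDC1, an HSP90 co-chaperone, 9.49, 12.7 and 20.0. AHSA1, the activator of HSP90's ATPase, had 82.3, 89.5 and 151 RPKM. Others did not move this way: STIP1, which links HSP70 to HSP90, had -0.12 and -0.72, the polyubiquitin gene UBB -0.39 and -0.77, and SERPINH1, the collagen chaperone HSP47, was 2-fold lower at 5 μM at -1.05, or -0.47 with the GC trend removed. HSPA6, the strictly stress-induced HSP70 that is silent in unstressed cells, had 47 counts in DMSO, 24 at 1 μM and 28 at 5 μM, and 9 to 20 in the knockdown libraries, under an average of 1 CPM in both experiments.

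With the hairpins these targets had medians of 0.00 and 0.17, and 1 of 19 was at least 2-fold lower in CDK16-sh1 (FKBP4), where 6.86% of all genes were. FKBP4, an HSP90-bound immunophilin, had 4130 counts in scramble, 1188 with CDK16-sh1 and 6293 with CDK16-sh2, log2 fold changes of -2.07 and 0.71. The related FKBP5 was lower with both hairpins, at -1.38 and -1.43, from 1001 counts to 464 and 345. FKBP5 is known mainly as a glucocorticoid receptor target. ZFAND2A had 0.62 and 0.34.

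At 1 μM no expressed gene of the 11 chaperone lists was at least 2-fold lower or higher under TMM, and list medians lay between -0.05 and 0.21. With the hairpins, list medians lay between -0.30 and 0.53 for CDK16-sh1 and between -0.07 and 0.50 for CDK16-sh2. Past 2-fold were HSP90AA1, HSPB1, HSF1, FKBP4, FKBP5 and DNAJC3 with CDK16-sh1, where 6.86% of all genes were lower and 4.33% higher. With CDK16-sh2 they were FKBP5, CLPB and CANX, where 7.62% of all genes were lower and 2.2% higher. These genes come from all 11 lists together. With the trend in GC and length removed only FKBP4 of the first 6 stayed past 2-fold, while FKBP5 was at -0.97 and DNAJC3 at -0.68. That setting also put other genes past 2-fold. In CDK16-sh1, 1 co-chaperone was then higher, where 2.06% of all genes were. In CDK16-sh2, 1 co-chaperone, 1 HSP40 gene and 1 endoplasmic reticulum chaperone were, and the latter lists share genes. The share of all genes in CDK16-sh2 under that setting was not taken. With CDK16-sh2, FKBP5 and CANX stayed past 2-fold under the 4 other settings, while CLPB went from 1.02 to 0.82 with library totals and 0.96 with the trend removed. Among genes on the same side of scramble with both hairpins, HSPA13, a microsomal HSP70, had -0.94 and -0.48, DNAJB4 -0.60 and -0.34, and SUGT1, an HSP90 co-chaperone, 0.65 and 0.63.

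At 5 μM the families around the members differed more widely, and their counts stand against 23.6% of all genes at least 2-fold higher and 27.2% lower, or 11.7% and 43.4% with library totals. Of 15 expressed HSP70 and HSP110 genes, 4 were at least 2-fold higher at 5 μM (HSPA1B, HSPA1A, HSPA4 at 1.17 and HYOU1 at 1.01) and 1 lower (HSPA12A), with a median of 0.44. With library totals 1 was higher and 3 lower, and the median was -0.23. Of 4 HSP90 genes, 2 were at least 2-fold higher (HSP90B1 of the endoplasmic reticulum at 1.26 and HSP90AB1 at 1.00), with a median of 0.72. With library totals none was higher and 1 lower, with a median of 0.03, and with the GC trend removed none was past 2-fold. Of 4 expressed small heat shock proteins, 2 were at least 2-fold higher, HSPB1 and HSPB6, the latter at 2.46 from 71 counts in DMSO to 186, with a median of 0.85, or 1 higher and a median of 0.16 with library totals. Of 12 expressed HSP40 genes of types A and B, 2 were at least 2-fold higher (DNAJB6 at 1.57 and DNAJB2 at 1.04) and 3 lower (DNAJB12 at -3.30, DNAJB5 at -2.79 and DNAJA3 at -1.81), with a median of 0.33 that turned to -0.36 with library totals (none higher, 5 lower) and -0.11 with the GC trend removed. DNAJB12, an endoplasmic reticulum J-domain protein, went from 2727 counts in DMSO to 2177 at 1 μM and 127 at 5 μM. Of 10 BAG proteins and other exchange factors, 5 were at least 2-fold higher and none lower, with a median of 1.01. With library totals 2 were higher and 2 lower, with a median of 0.32. The 5 that were higher under TMM were BAG4 at 2.17, GRPEL2 at 2.10, BAG2 at 1.66, BAG5 at 1.42 and BAG3.

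For the lists in this paragraph too, 23.6% of all genes were at least 2-fold higher at 5 μM and 27.2% lower, or 11.7% and 43.4% with library totals. Of 16 HSP70 and HSP90 co-chaperones, 5 were at least 2-fold higher, among them PPID at 1.87 and CDC37L1 at 1.71. Another 3 were lower, among them TTC4 at -2.27 and FKBP5 at -1.51. The median of the co-chaperones was 0.08, but -0.12 with TMM over all rows, -0.61 with library totals (4 higher and 7 lower) and 0.53 with the GC trend removed. Of the 8 subunits of TRiC, the cytosolic chaperonin for actin and tubulin, 2 were at least 2-fold higher (TCP1 at 1.43 and CCT7 at 1.21) and none lower, with a median of 0.04 that turned negative under 3 other scalings (-0.65 with library totals, none higher and 3 lower), while CCT3 had -0.87. Subunits of this 1 complex thus lay on both sides of DMSO. Of 9 mitochondrial chaperones the median was -0.44 under TMM and -1.13 with library totals, with GRPEL2 higher and DNAJA3 lower past 2-fold. With library totals 1 was higher and 7 lower. HSPA9, the mitochondrial HSP70, had -0.28 and TRAP1, the mitochondrial HSP90, -0.44. With CDK16-sh2 the median of these 9 was 0.49, CLPB was at 1.02, GRPEL1 at 0.97 and TRAP1 at 0.64.

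Endoplasmic reticulum chaperones, which the unfolded protein response mainly controls, were included for comparison. Of 14, 6 were at least 2-fold higher at 5 μM and 2 lower, with a median of 0.73, where 23.6% and 27.2% of all genes were. With library totals 3 were higher and 3 lower, with a median of 0.04, where 11.7% and 43.4% of all genes were. DNAJC3 had 2.43, PDIA6 2.06, PDIA3 1.80, HSP90B1 1.26 and CANX 1.24, while SDF2L1 had -1.51 and MANF -1.06. The median of this list was thus close to that of the members (0.68) and of the other HSF1 targets (0.70). HSPA5 (BiP), the main chaperone of that compartment, had 0.57. With the hairpins, 1 gene each was at least 2-fold lower, DNAJC3 in CDK16-sh1 at -1.08 (-0.68 with the GC trend removed) and CANX in CDK16-sh2 at -1.44. Of all genes, 6.86% and 7.62% were at least 2-fold lower with these hairpins.

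**Figure D5:**
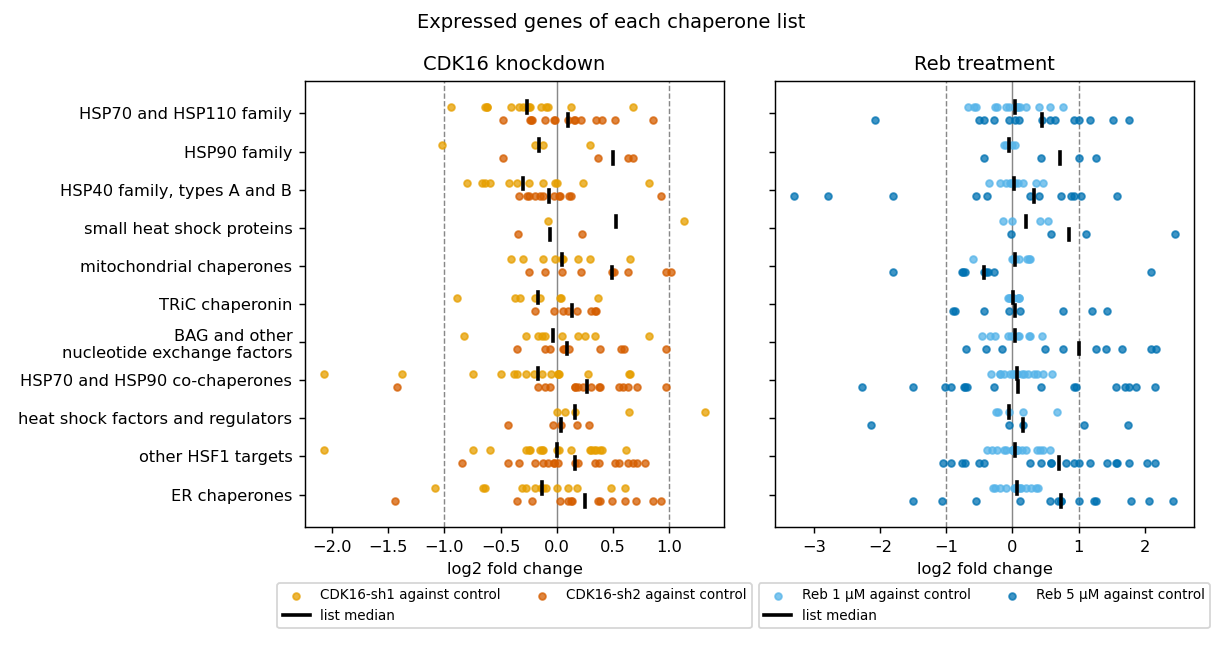
Log2 fold change of each expressed gene of 11 chaperone lists, 1 point per gene, CDK16-sh1 and CDK16-sh2 on the left and Reb at 1 μM and 5 μM on the right, with list medians as black bars and 2-fold as dashed lines. At 5 μM the medians run from -0.44 for mitochondrial chaperones to 1.01 for BAG proteins and other exchange factors, and every list holds genes on both sides of 0.

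The genes whose 4 log2 fold changes lay closest to the median profile of the members, by Euclidean distance among 10554 genes that averaged 5 CPM or more in both experiments, were MAPK3 (distance 0.0734), PROSER1 (0.123), ALG2 (0.127), PAK2 (0.131) and ZKSCAN8 (0.133). MAPK3, the kinase ERK1, had -0.28 and 0.01 with the hairpins, -0.12 at 1 μM and 0.62 at 5 μM. None of the 5 was on a chaperone list used here.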

How the data were processed

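Messenger RNA of 6 MDA-MB-231 libraries was sequenced by the authors from stranded mRNA libraries on a HiSeq X 10. The deposited tables hold whole-number read counts per gene, without normalization, and RPKM values that the authors calculated from these counts, the gene length and the library total. The submitters' processing notes name Trimmomatic, featureCounts, Subread 1.5.1 and GRCh38. The aligner, the annotation and the strand setting are not given in the sources used here. Coordinates are those of the deposited tables.

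Log2 fold changes came from TMM-scaled CPM with a prior count of 2 (R 4.3.3, edgeR 4.0.16) over genes averaging 1 CPM or more. A gene was called at 2-fold alone, which is the fold part of the study's threshold without its condition on the adjusted p. The 95% Clopper-Pearson intervals treat the reads of a pair of libraries as independent molecules, which reads without identifiers are not, and so cover counting error only. Across genes, edgeR's quasi-likelihood test (adjusted p of at most 0.05 and 2-fold) compared both treated libraries with the control, and DESeq2 1.42.0 was an alternative. Levels between genes are compared in RPKM, taken over all exonic bases of a gene, which can exceed those of any single transcript. Promoter sequences are RefSeq, GRCh38.p14, and all 10 genes matched, with 14 windows. Shared sequence was searched in GENCODE transcripts in windows of 100 bases.

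The members, lists and tests were chosen with earlier results of these data known. The genes named are the members, HSF1, HSF2, HSBP1, CDK16, for each list and experiment the 2 largest rises and 2 largest falls shared by both treated libraries (averaging 5 CPM or more, ordered by the smaller change), and the 5 genes nearest the members' median profile. Other genes named, such as those past 2-fold at 1 condition, were chosen after their values were seen. No column belonged to a sample of another series. Normalization, filters, prior count, summing of HSPA1A with HSPA1B, and removal of the trend in GC content and length (known for 84.6% and 84.3% of genes) were varied. The values of a single gene in the list of other HSF1 targets are not reported here, although the counts and medians of that list include it.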

Additional observations from a re-analysis of the deposited data

How the results depend on the processing

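No paired analysis was possible because each condition had 1 library and the labels give no replicate numbers. For the same reason no library could be left out with a spread remaining, and depth limits only the counting intervals. The 10 alternatives (1 of them, TMM over all rows of the table, chosen after seeing the data) were applied to the 40 member values. The sign was the same under all 10 for 34 values, and no value past 2-fold changed sign. The 6 that did change sign are HSPE1 in CDK16-sh1, HSPA1A, HSPH1 and BAG3 in CDK16-sh2, HSPB1 at 1 μM and HSP90AA1 at 5 μM. With the trend in GC and length removed, 0 members were at least 2-fold lower and 0 higher in CDK16-sh1, and the median was -0.35 there, -0.19 at 1 μM and 0.51 at 5 μM. At a threshold of 1.5-fold, 3 members were lower and 1 higher in CDK16-sh1, and 1 was lower and 5 were higher at 5 μM. The share of all genes past 1.5-fold was not taken, so these counts have no background beside them. With library totals, and likewise with the authors' RPKM plus 0.1, 4 members were at least 2-fold lower and 1 higher at 5 μM. Of all genes, 43.4% were lower and 11.7% higher with library totals. The member medians under both settings were -0.15 in CDK16-sh2, -0.09 at 1 μM and -0.01 at 5 μM. The remaining shifts of the 5 μM median were to 0.75 with DESeq2 size factors, 0.48 with TMM over all rows and with no filter on low counts, 0.63 with a mean of at least 5 CPM and 0.43 with HSPA1A and HSPA1B summed, which also gave -0.02 in CDK16-sh2. The cause of these shifts was not tested beyond the change in scale that each alternative makes. No fit called a member, and all genes called with Reb numbered 0 with library totals, 3 with no filter and 1613 with dose as a linear term. The latter is adjusted p of at most 0.05 with a slope of at least 1 in size, a stricter cut than 2-fold between DMSO and 5 μM. HSPA1A and HSPA1B met its adjusted p but not that slope.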
